A study of Homo sapiens with 4 samples.

Results

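The genes described here write, remove or read chemical marks on chromatin, or move nucleosomes. They were taken from the deposited expression table by symbol, with families of lysine demethylases (KDM), lysine and arginine methyltransferases (KMT, SETD, EHMT, NSD, PRMT), acetyltransferases (KAT, EP300), deacetylases (HDAC, SIRT), DNA methylation enzymes (DNMT, TET), remodelers (SMARC, CHD) and ARID, PHF and ING proteins, leaving out EZH2 and PHF19, which belong to Polycomb repressive complex 2 (PRC2) or act with it. This gave 53 of the 7640 listed genes. The rule used symbols only, but it was set with earlier results of these data known. Of the 53 genes, 49 had a mean level of at least 1 FPKM (fragments per kilobase of transcript, scaled by library depth) over the libraries and are called measured, as were 6139 of all listed genes. The 4 others were CHD5, TET1, PRMT8 and KDM5D.

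Chromatin marks are placed by writers, removed by erasers and bound by readers, and remodelers use ATP to slide, space or evict nucleosomes. EZH2 is the catalytic subunit of PRC2, which methylates lysine 27 of histone H3 at repressed genes. KDM6A and KDM6B remove that mark, EP300 acetylates the same lysine, and the SWI/SNF remodelers oppose Polycomb at many promoters. DNA methyltransferases and TET enzymes set the methylation of cytosine at CG dinucleotides, and many of these regulators are mutated or misexpressed in colorectal cancer.

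RNA was sequenced from 2 human cell lines of colorectal cancer, HCT116 and RKO. Each line had been infected with lentivirus carrying a short hairpin RNA (shRNA), either a control hairpin or one that silences EZH2, and stable cells were selected with puromycin. The groups were HCT116 with the control shRNA, HCT116 with the EZH2 shRNA, RKO with the control shRNA and RKO with the EZH2 shRNA, with 1 library each. The titles do not say which hairpin was used, and a difference within a line has no replicate check. For each line the knockdown comparison asked what differed when EZH2 was lowered, and the line comparison asked how the same genes differed between HCT116 and RKO.

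Libraries held an estimated 16962124 to 18934598 fragments, of which the listed genes took 41.7% to 48.3%. EZH2 was 31.49 FPKM in the HCT116 control and 12.61 FPKM in the HCT116 knockdown library. In RKO it was 33.61 and 6.61 FPKM, so the targeted transcript was lower in both knockdown libraries. Of 10 markers of colorectal epithelium, 7 were in the table. Their summed level was 2710.47 and 2610.97 FPKM in HCT116 but 168.17 and 204.94 FPKM in RKO. In RKO EPCAM was at most 0.06 FPKM and KRT20 at most 0.03 FPKM, though KRT20 was only 1.53 and 1.61 FPKM in HCT116. Not all markers were low in RKO. KRT18 was at 154.04 and 187.91 FPKM there, most of the RKO sum. CDX2 overlapped between the lines, with 10.66 and 8.95 FPKM in HCT116 and 6.91 and 9.24 FPKM in RKO. The RKO control library stood apart from the others in transcripts poor in G and C. Among the 1027 measured genes whose longest transcript had under 40% GC, the median difference of log2(FPKM + 1) between RKO and HCT116 was -0.96 in the control pair and -0.23 in the knockdown pair. For the 10 chromatin regulators in that class the same medians were -1.2 and -0.10. The part of this base composition difference in the RKO values below was not tested, and the larger RKO differences are given also after subtracting the trend of the change over GC fitted to all genes. In bulk libraries such as these, fewer cells that express a gene and less RNA per cell cannot be told apart.

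The promoters of 5 genes that the results turn on are shown from RefSeq (GRCh38.p14), each 250 bases before to 50 bases after the annotated start, read 5′ to 3′ on the strand of the gene, with every CG dinucleotide in capitals. CHD1 and PHF3 were among the genes with the largest difference in RKO, HDAC9 was higher and DNMT3B lower in both knockdown libraries, and SMARCA1 was nearly silent in RKO. CG dinucleotides are the sites of DNA methylation, and promoters dense in them are where PRC2 is known to act in mammalian cells.
CHD1: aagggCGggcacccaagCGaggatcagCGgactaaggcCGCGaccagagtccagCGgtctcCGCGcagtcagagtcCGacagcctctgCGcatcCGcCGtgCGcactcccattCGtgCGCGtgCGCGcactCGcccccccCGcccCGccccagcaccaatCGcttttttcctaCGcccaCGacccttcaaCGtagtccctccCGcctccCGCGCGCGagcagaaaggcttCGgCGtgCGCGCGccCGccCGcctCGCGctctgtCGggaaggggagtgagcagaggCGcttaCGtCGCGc
PHF3: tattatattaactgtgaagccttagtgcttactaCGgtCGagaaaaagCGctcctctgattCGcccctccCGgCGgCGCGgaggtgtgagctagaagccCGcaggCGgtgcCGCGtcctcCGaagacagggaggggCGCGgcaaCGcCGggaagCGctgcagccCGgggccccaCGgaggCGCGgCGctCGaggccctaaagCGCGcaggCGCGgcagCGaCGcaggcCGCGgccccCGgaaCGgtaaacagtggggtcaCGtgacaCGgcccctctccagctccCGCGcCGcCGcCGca
HDAC9: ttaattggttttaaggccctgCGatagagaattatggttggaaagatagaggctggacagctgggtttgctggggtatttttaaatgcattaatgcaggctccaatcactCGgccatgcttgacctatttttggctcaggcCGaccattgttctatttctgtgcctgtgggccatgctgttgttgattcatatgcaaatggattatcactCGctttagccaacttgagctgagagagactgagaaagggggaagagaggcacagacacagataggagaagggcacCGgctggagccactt
DNMT3B: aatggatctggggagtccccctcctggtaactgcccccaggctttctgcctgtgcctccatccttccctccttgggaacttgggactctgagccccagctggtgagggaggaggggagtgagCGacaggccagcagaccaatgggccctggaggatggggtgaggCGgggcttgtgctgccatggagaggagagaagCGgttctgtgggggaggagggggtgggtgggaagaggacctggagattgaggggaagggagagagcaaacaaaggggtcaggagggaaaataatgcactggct
SMARCA1: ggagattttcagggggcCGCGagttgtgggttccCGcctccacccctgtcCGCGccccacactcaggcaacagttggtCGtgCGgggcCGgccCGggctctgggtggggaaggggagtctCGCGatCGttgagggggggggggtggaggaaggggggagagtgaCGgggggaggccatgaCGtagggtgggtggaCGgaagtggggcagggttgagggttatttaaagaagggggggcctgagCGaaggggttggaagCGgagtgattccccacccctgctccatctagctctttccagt
The CHD1 window (chr5:98928958-98929257, minus strand) held 44 CG dinucleotides and the PHF3 window (chr6:63635552-63635851, plus strand) 41. The HDAC9 window (chr7:18495499-18495798, plus strand) held 5, the DNMT3B window (chr20:32779602-32779901, plus strand) 3 and the SMARCA1 window (chrX:129523441-129523740, minus strand) 17. The letters CG read the same on both strands and were counted without overlap. A window was found for 48 of the 53 genes. At least 15 CG dinucleotides were present in 81.7% of the 4939 measured genes that had a window and in 80% of the 45 such chromatin regulators, with medians of 26 and 28. The table gives 1 start per gene, and which start these cells used was not measured.

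Levels of the chromatin regulators spanned the range from near 0 to over 100 FPKM, and 43 of the 53 genes were at 1 FPKM or more in all 4 libraries. The highest was HDAC1, a deacetylase of the NuRD, SIN3 and CoREST complexes, at 130.65 FPKM in the HCT116 control, 124.34 FPKM in the HCT116 knockdown, 77.38 FPKM in the RKO control and 75.29 FPKM in the RKO knockdown library. KDM1A, which demethylates lysine 4 of histone H3 within CoREST, was at 92.38, 99.86, 96.04 and 89.80 FPKM in the same order, the order used for every set of 4 values below. The SWI/SNF subunit SMARCD2 was at 111.43, 104.49, 76.41 and 71.46 FPKM, and the NuRD ATPase CHD4 at 81.66, 80.23, 65.64 and 58.30 FPKM. These abundant genes kept within 1.2-fold of their control in both lines. At the low end of the measured genes, KDM4D, a demethylase of lysine 9 of histone H3, was at 1.65, 1.66, 0.69 and 0.68 FPKM.

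**Figure D1:**
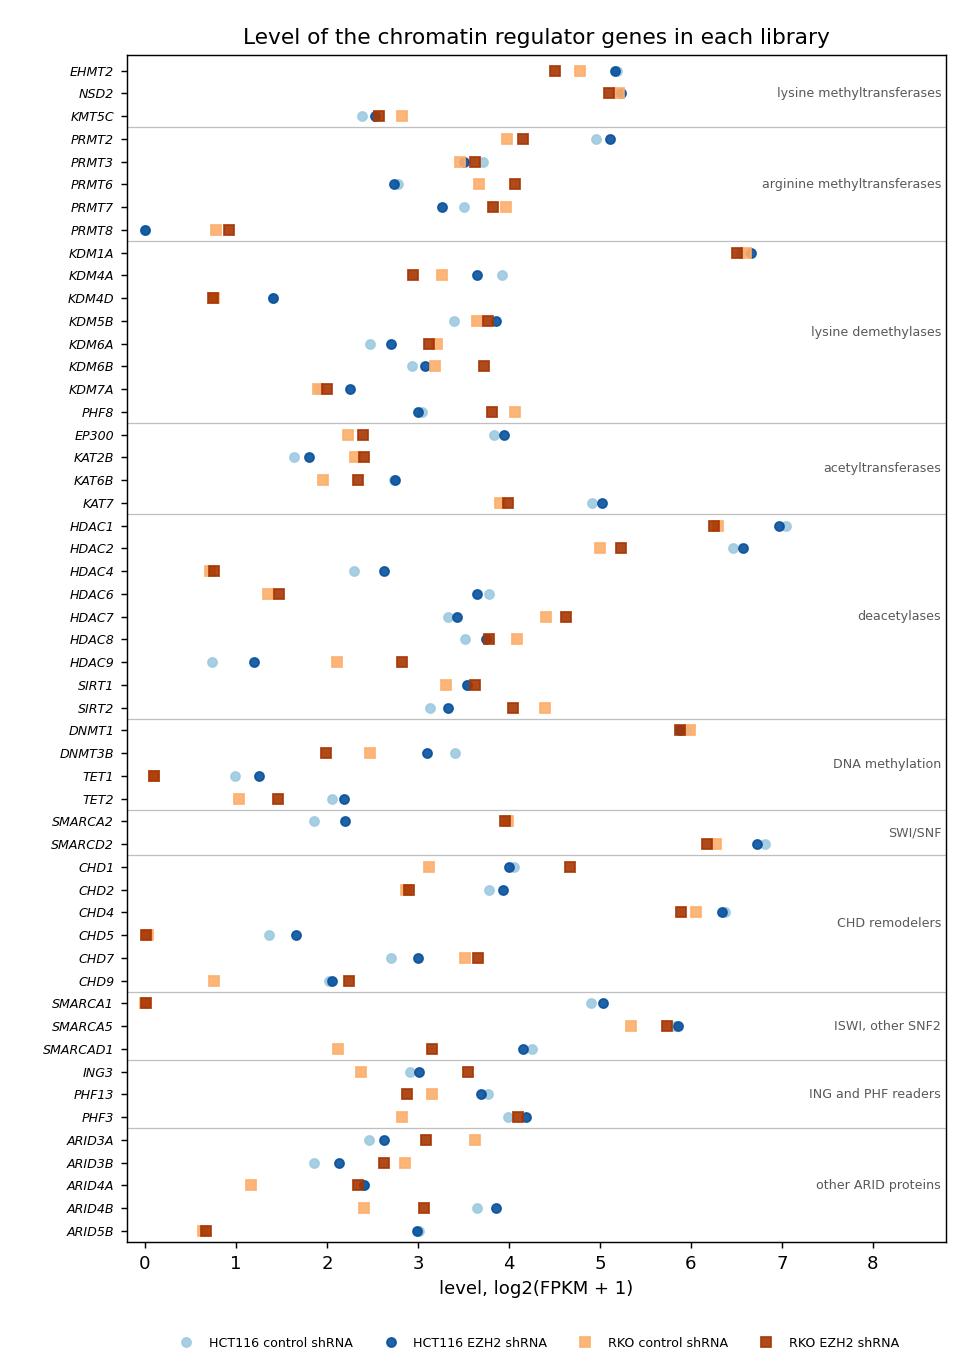
Level of each chromatin regulator as log2(FPKM + 1), with 1 point per library, genes grouped by role (KDM5D is not drawn). Most knockdown points lie beside the control point of the same line, while in RKO the knockdown points of CHD1, CHD9, PHF3, ARID4A, ING3 and SMARCAD1 lie well to the right of the control points.

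Genes count as higher or lower where the knockdown and control libraries differed by more than 1.2-fold on the log2(FPKM + 1) scale, which understates the change of weakly expressed genes. In HCT116, 7 of the 49 measured regulators (14.3%) were higher with the EZH2 shRNA and 2 (4.08%) were lower, against 12.7% and 9.66% of all measured genes. In RKO, 14 (28.6%) were higher and 7 (14.3%) lower, against 22.7% and 10.9% of all measured genes. With counts this small, no share is read as a departure from the background. For each member called here, in either line, the 95% exact binomial interval of the depth-scaled count ratio left out 1, an interval that covers counting error only. The median change was 0.10 on the log2 scale in HCT116 and 0.09 in RKO, beside 0.01 over all measured genes in each line. The RKO median was less stable, at 0.04 with the GC trend subtracted or with no filter on low values, 0.03 with a minimum mean of 5 FPKM, and 0.01 under median-of-ratios scaling, where that of all genes was -0.03. HDAC9 was the only member over 1.2-fold higher in both lines (background 3.99%), DNMT3B and KDM4A were the 2 lower in both (background 2.66%), and none passed the threshold in opposite directions (background 1.65%). When RKO was scaled by the median of ratios, 13 members were higher and 11 lower in RKO, and over all measured genes 1137 were higher and 1251 lower in place of 1394 and 671.

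**Figure D2:**
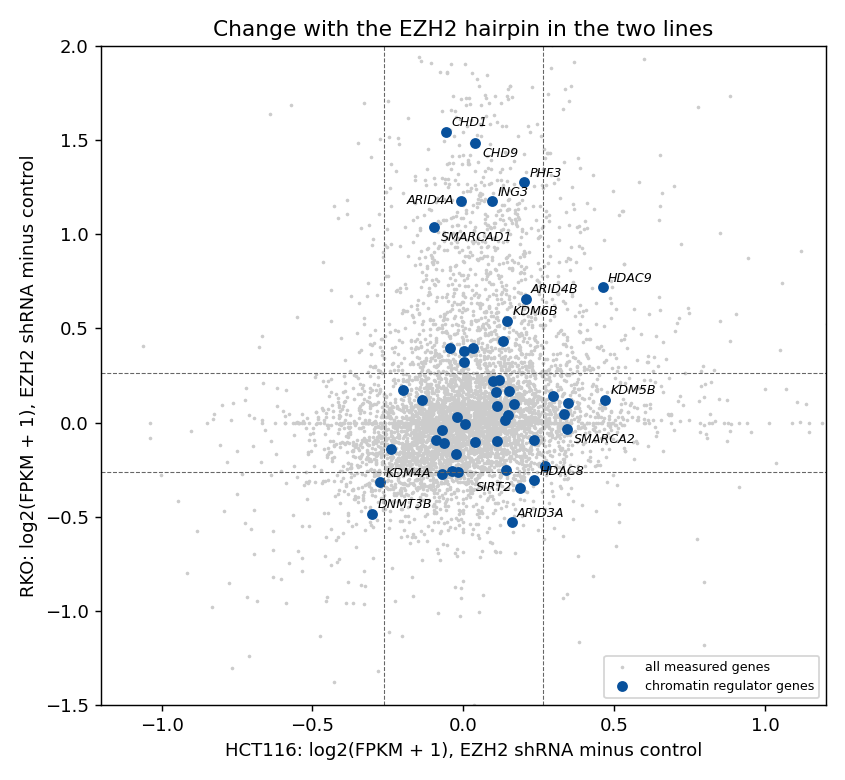
Difference of log2(FPKM + 1), EZH2 shRNA minus control, in HCT116 (horizontal) and RKO (vertical), with chromatin regulators in blue, all measured genes in grey (those beyond the axes not drawn) and dashed lines at 1.2-fold. The regulators stay between -0.30 and 0.47 in HCT116 and spread from -0.53 to 1.55 in RKO.

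Among the CHD remodelers, CHD1 and CHD9 were far higher in the RKO knockdown library and little different in HCT116. CHD1, which binds methylated lysine 4 of histone H3 and spaces nucleosomes over transcribed genes, was at 15.64, 14.98, 7.73 and 24.51 FPKM. The RKO control was the lowest of its 4 libraries and the RKO knockdown the highest, a log2 difference of 1.55 and a count ratio of 3.04 (95% interval 2.81 to 3.29). CHD9 was at 3.05, 3.16, 0.69 and 3.74 FPKM, with a count ratio of 5.27 (4.40 to 6.35) in RKO. The RKO control was thus far below the 3 other libraries. CHD7, the remodeler mutated in CHARGE syndrome, was at 5.51, 7.0, 10.44 and 11.61 FPKM, a log2 difference of 0.30 in HCT116 and 0.14 in RKO. CHD2 (12.79, 14.27, 6.28 and 6.48 FPKM) stayed within 1.2-fold in both lines. After subtraction of the GC trend the RKO differences were 1.08 for CHD1 and 1.06 for CHD9, whose transcripts had 38.1% and 38.4% GC.

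Of the 3 measured ISWI and related SNF2 remodelers, SMARCAD1 and SMARCA5 were over 1.2-fold higher in the RKO knockdown library. There 22.7% of all measured genes were higher, and 66.5% of those with under 40% GC. SMARCAD1, an ATPase that helps keep heterochromatin through replication, was at 18.02, 16.76, 3.34 and 7.93 FPKM. Its RKO knockdown library was higher than the RKO control but stayed below both HCT116 libraries. SMARCA5, the main ISWI ATPase, was at 55.55, 56.77, 39.49 and 52.26 FPKM, a log2 difference of 0.40 in RKO. SMARCAD1 had 36% and SMARCA5 39.0% GC, and with the GC trend subtracted their RKO differences were 0.29 and 0.04, so SMARCA5 was then within 1.2-fold. SMARCA1, the other ISWI ATPase, was at 28.83 and 31.83 FPKM in HCT116 and at 0.00 and 0.01 FPKM in RKO.

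Readers and ARID proteins held 4 of the genes with the largest RKO difference. PHF3, a PHD finger protein that binds the phosphorylated tail of RNA polymerase II, was at 14.88, 17.27, 6.08 and 16.15 FPKM. The RKO control again stood below the other 3 libraries. ING3, a reader of methylated lysine 4 in the TIP60 acetyltransferase complex, was at 6.52, 7.04, 4.19 and 10.72 FPKM, and in RKO its count ratio was 2.53 (2.11 to 3.04). ARID4A, a retinoblastoma-binding protein of the SIN3 deacetylase complex, was at 4.32, 4.29, 1.24 and 4.07 FPKM. Its paralog ARID4B was at 11.53, 13.46, 4.32 and 7.39 FPKM. The log2 differences in RKO were 1.28 for PHF3, 1.18 for ING3, 1.18 for ARID4A and 0.66 for ARID4B, and 0.92, 0.54, 0.64 and 0.32 with the GC trend subtracted. The DNA-binding protein ARID3A went the other way, with 4.53, 5.18, 11.33 and 7.53 FPKM. Its difference of log2(FPKM + 1) in RKO was -0.53, the largest fall of any member there on that scale. By count ratio DNMT3B fell more in RKO, at 0.626 against 0.721 for ARID3A. PHF13, a reader of methylated lysine 4, was at 12.60, 11.95, 7.90 and 6.37 FPKM. ARID3B was at 2.63, 3.38, 6.24 and 5.16 FPKM, higher in HCT116 by 0.27 and with -0.23 in RKO on the log2 scale, and ARID5B was within 1.2-fold in both lines.

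In RKO the members that were higher lay mainly among the transcripts poor in GC. Of the 10 members under 40% GC, 8 (80%) were over 1.2-fold higher in RKO, against 66.5% of the 1027 measured genes of that class, and the other 2 were HDAC2 and KDM7A. Of the 39 members with 40% GC or more, 6 (15.4%) were higher and 7 (17.9%) lower, against 13.7% and 12.5% of the genes of that class. In HCT116 1 of the 10 members under 40% GC was higher, KDM7A, against 13.6% of that class. The median RKO change of the 10 members was 1.11, beside 0.53 for all genes of the class. With the GC trend subtracted these medians were 0.43 and 0.03. Spearman's rho between GC and the RKO change was -0.62 across the 49 members and -0.39 across 6081 genes, and in HCT116 -0.13 and -0.17. These are correlations across genes that share the same libraries, and genes are not replicates. The members' longest transcripts also had a median of 5891 bases, beside 3385 over all measured genes. Under 40% GC these medians were 8009 and 4844 bases. Spearman's rho between length and the change across members was 0.35 in RKO and 0.41 in HCT116, and 0.17 and 0.20 across 6081 genes. The part of length in these values was not tested. With the GC trend subtracted, 13 of the 49 members were higher in RKO, against 17.3% of all genes under that setting. Of these 13, 12 were among the 14 counted above. SMARCA5 and SIRT1 dropped out and HDAC7 entered. Under the same setting 6 of the 49 were lower, against 15.1% of all genes, without EHMT2 and PHF13 and with KDM7A.

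**Figure D3:**
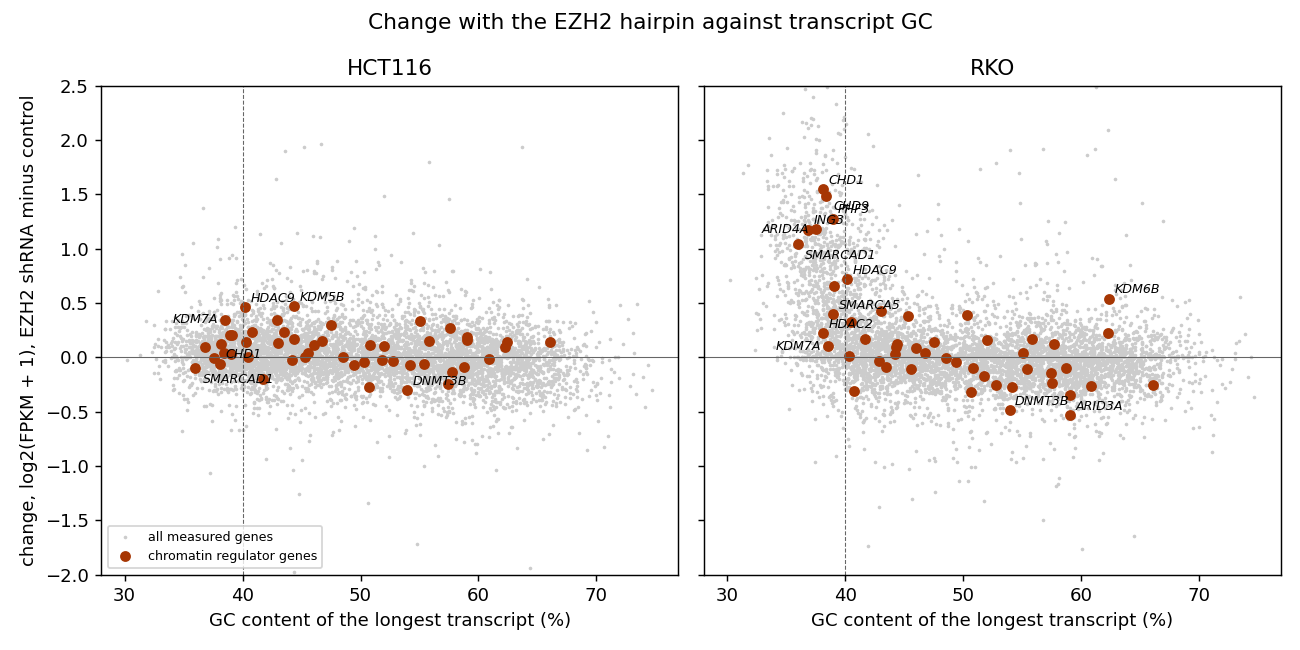
Difference of log2(FPKM + 1), EZH2 shRNA minus control, against the GC content of the longest transcript in HCT116 (left) and RKO (right), with chromatin regulators in brown, all measured genes in grey (those beyond the axes not drawn) and a dashed line at 40% GC. The 10 regulators left of the line lie between 0.10 and 1.55 in RKO and between -0.10 and 0.35 in HCT116.

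HDAC9 was the member over 1.2-fold higher in both knockdown libraries. This class IIa deacetylase, a corepressor of MEF2 factors, was at 0.67, 1.30, 3.32 and 6.11 FPKM, with count ratios of 1.88 (1.36 to 2.62) in HCT116 and 1.86 (1.61 to 2.16) in RKO. Both knockdown libraries were above their control, though all HCT116 values lay below the RKO values. Its transcript had 40.2% GC, and the RKO difference of 0.72 was 0.50 with the GC trend subtracted.

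Other deacetylases passed the threshold in 1 line at most. HDAC4, also of class IIa, was at 3.90, 5.18, 0.64 and 0.69 FPKM, higher in HCT116 by 0.33 on the log2 scale and near the pseudocount in RKO. HDAC8, which deacetylates the cohesin subunit SMC3, was at 10.41, 12.42, 16.06 and 12.78 FPKM, with log2 differences of 0.23 and -0.31. It was thus lower in RKO and inside 1.2-fold in HCT116. The NAD-dependent deacetylase SIRT2, which acts on tubulin and histone H4, was at 7.80, 9.02, 20.03 and 15.55 FPKM, and SIRT1 at 10.60, 10.63, 8.92 and 11.40 FPKM. SIRT2 was lower and SIRT1 higher in RKO. The count ratios of SIRT2 were 1.22 (1.04 to 1.44) in HCT116 and 0.764 (0.684 to 0.853) in RKO, past 1.2-fold in opposite directions. HDAC1, HDAC2, HDAC6 and HDAC7 stayed within 1.2-fold in both lines, with HDAC2 at 0.23 in RKO and -0.23 with the GC trend subtracted. Of the 9 measured deacetylases, HCT116 had 2 higher with the EZH2 shRNA, and RKO had 2 higher and 2 lower. The shares of all measured genes were 12.7% higher in HCT116, and 22.7% higher and 10.9% lower in RKO.

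Of the 8 measured lysine demethylases, HCT116 had 2 higher and 1 lower with the EZH2 shRNA, and RKO had 1 higher and 1 lower. KDM5B, which removes methyl groups from lysine 4 of histone H3, was at 9.50, 13.53, 11.57 and 12.68 FPKM. Its difference of log2(FPKM + 1) was 0.47 in HCT116, the largest of any member there on that scale, and 0.12 in RKO. By count ratio HDAC9 rose more in HCT116, at 1.88 against 1.40 for KDM5B. KDM7A, a demethylase of lysines 9 and 27, was at 2.76, 3.78, 2.73 and 3.01 FPKM, higher in HCT116 by 0.35. In RKO its difference was 0.10, and -0.30 with the GC trend subtracted, so the direction there turns with that setting. KDM4A, which demethylates lysines 9 and 36, was at 14.21, 11.57, 8.61 and 6.72 FPKM. It was lower in both knockdown libraries, with count ratios of 0.818 (0.748 to 0.894) in HCT116 and 0.784 (0.701 to 0.875) in RKO. The lines kept apart, with both HCT116 values above both RKO values.

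The demethylases that undo the EZH2 mark did not move alike. KDM6B, known as a gene induced by inflammatory signals, was at 6.64, 7.45, 8.08 and 12.21 FPKM. The RKO knockdown library was the highest of the 4, with a count ratio of 1.51 (1.39 to 1.64), while in HCT116 the log2 difference was 0.15. Its transcript had 62.4% GC, far from the class poor in GC, and subtraction of the trend gave 0.59 in RKO. KDM6A, the X-linked demethylase of the same mark, was at 4.54, 5.52, 8.27 and 7.70 FPKM, with log2 differences of 0.23 and -0.09, both inside 1.2-fold. PHF8 and KDM1A also stayed inside it, but KDM6A and PHF8 lay near the threshold. With a pseudocount of 0.1, KDM6A was past it in HCT116 at 0.28 and PHF8 in RKO at -0.27.

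The acetyltransferases differed little, with KAT6B the member that passed the threshold. KAT6B, a MYST family enzyme, was at 5.69, 5.70, 2.89 and 4.06 FPKM, a log2 difference of 0.38 in RKO and 0.37 with the GC trend subtracted. EP300 was at 13.30, 14.42, 3.70 and 4.26 FPKM, KAT7 at 29.16, 31.58, 13.97 and 14.93 FPKM and KAT2B at 2.11, 2.49, 3.95 and 4.30 FPKM. In each of these 3 genes the lines did not overlap, while the hairpins differed by less than 1.2-fold.

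Methyltransferases for lysine were thinly covered, with EHMT2, NSD2 and KMT5C in the table and EZH1, the paralog of EZH2, not analysed here. EHMT2, which methylates lysine 9 of histone H3, was at 35.38, 34.92, 26.40 and 21.79 FPKM, lower in RKO by a log2 difference of -0.27. NSD2, for lysine 36, was at 35.51, 36.49, 35.88 and 33.31 FPKM, and KMT5C, for lysine 20 of histone H4, at 4.22, 4.76, 6.08 and 4.95 FPKM. Both were within 1.2-fold in each line. Among arginine methyltransferases, PRMT6, which acts on histone H3, was at 5.85, 5.65, 11.71 and 15.71 FPKM and was the only one to pass the threshold, with 0.39 in RKO and 0.43 with the GC trend subtracted. PRMT3 and PRMT7 had log2 differences of -0.20 and -0.24 in HCT116 and 0.17 and -0.14 in RKO.

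The DNA methylation enzymes showed DNMT3B lower in both knockdown libraries. DNMT3B, a de novo methyltransferase, was at 9.60, 7.60, 4.54 and 2.96 FPKM. The count ratios were 0.785 (0.70 to 0.880) in HCT116 and 0.626 (0.528 to 0.742) in RKO, and the RKO difference was -0.48 before and -0.45 after subtraction of the GC trend. DNMT1, the maintenance enzyme, was at 60.41, 57.72, 62.71 and 58.09 FPKM, within 1.2-fold in both lines. TET2, which oxidizes methylcytosine, was at 3.15, 3.55, 1.04 and 1.75 FPKM, higher in RKO by 0.43, or 0.38 with the GC trend subtracted. Of the SWI/SNF list, only SMARCA2 and SMARCD2 were in the table. SMARCA2, an ATPase of that complex, was at 2.62, 3.59, 14.87 and 14.50 FPKM, with a difference of 0.34 in log2(FPKM + 1) in HCT116. Its count ratio there was 1.197 (1.01 to 1.42), so on expected counts over depth it was not over 1.2-fold higher.

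An effect of the knockdown common to both lines was tested with edgeR's quasi-likelihood test on the expected counts, with the line as a block. Benjamini-Hochberg adjustment covered 6139 genes. The fit leaves 1 residual degree of freedom, which holds how far the hairpin difference varied between the lines. No measured gene passed an adjusted p of 0.05 (0.0% of genes, 0 of 49 members), and 256 genes and 2 members had an unadjusted p under 0.05. The 2 members were HDAC9 (unadjusted p = 0.0138) and DNMT3B (unadjusted p = 0.046), and the lowest adjusted p of any member was 0.717. EZH2 itself had a common log2 change of -1.72 with an adjusted p of 0.717 by edgeR. DESeq2 called 9 genes and limma 0, none of them members, and over the alternatives the lowest adjusted p of a member ran from 0.661 to 1.

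The lines differed in many of the regulators. By the same edgeR fit 13 of 49 members (26.5%) were above in RKO and 15 (30.6%) below, against 26.9% and 34.0% of all measured genes, so the shares were near the background. In 38 members the 2 libraries of a line did not overlap those of the other, with RKO above in 15 (30.6%) and below in 23 (46.9%), against 31.5% and 50.9% of all measured genes. All 28 called members had the same direction in the control pair and in the knockdown pair of libraries, and 27 passed 1.2-fold in both pairs. The fit that called them used these same pairs, so their agreement is not a separate check of the line differences. A difference between lines cannot be told apart from a difference between their cultures.

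The largest line differences were in remodelers, deacetylases and ARID5B. SMARCA1 gave 4053 expected counts over the 2 HCT116 libraries and 1 over the 2 RKO libraries, a depth-scaled ratio of 4479 with a counting interval of 804 to 176971. HDAC6, the mainly cytoplasmic tubulin deacetylase, was at 12.79, 11.55, 1.55 and 1.77 FPKM (log2 difference -2.65, edgeR adjusted p = 0.000999), and HDAC4 had a log2 difference of -2.37 (edgeR adjusted p = 0.0015). ARID5B, a partner of the demethylase PHF2, was at 7.06, 6.94, 0.56 and 0.59 FPKM (-3.34, edgeR adjusted p = 0.000713). All 3 were lower in RKO in each library. EP300 followed with -1.57 (edgeR adjusted p = 0.00187) and HDAC2 with -1.16 (edgeR adjusted p = 0.00259). HDAC2 was at 86.91, 94.50, 31.09 and 36.51 FPKM, and HDAC1 was also below in RKO.

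Higher in RKO were SMARCA2 (log2 difference 2.40, edgeR adjusted p = 0.00166), HDAC9 (2.34, edgeR adjusted p = 0.00148), PRMT6 (1.47, edgeR adjusted p = 0.00428) and HDAC7 (1.46, edgeR adjusted p = 0.00239). HDAC7, a class IIa deacetylase, was at 9.07, 9.79, 20.21 and 23.76 FPKM. The class IIa enzymes therefore split, with HDAC4 lower and HDAC7 and HDAC9 higher in RKO. PHF8, a demethylase of lysine 9 of histone H3, was at 7.24, 7.03, 15.81 and 13.05 FPKM (1.24, edgeR adjusted p = 0.00538). Among transcripts under 40% GC, the control and knockdown pairs gave close values for some members and not for others. HDAC2 was at -1.45 in the control pair and -1.35 in the knockdown pair. SMARCAD1 was below by -2.13 in the control pair and -0.99 in the knockdown pair, ARID4B by -1.24 and -0.79, while CHD1 was at -0.93 and 0.67 and was not called.

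**Figure D4:**
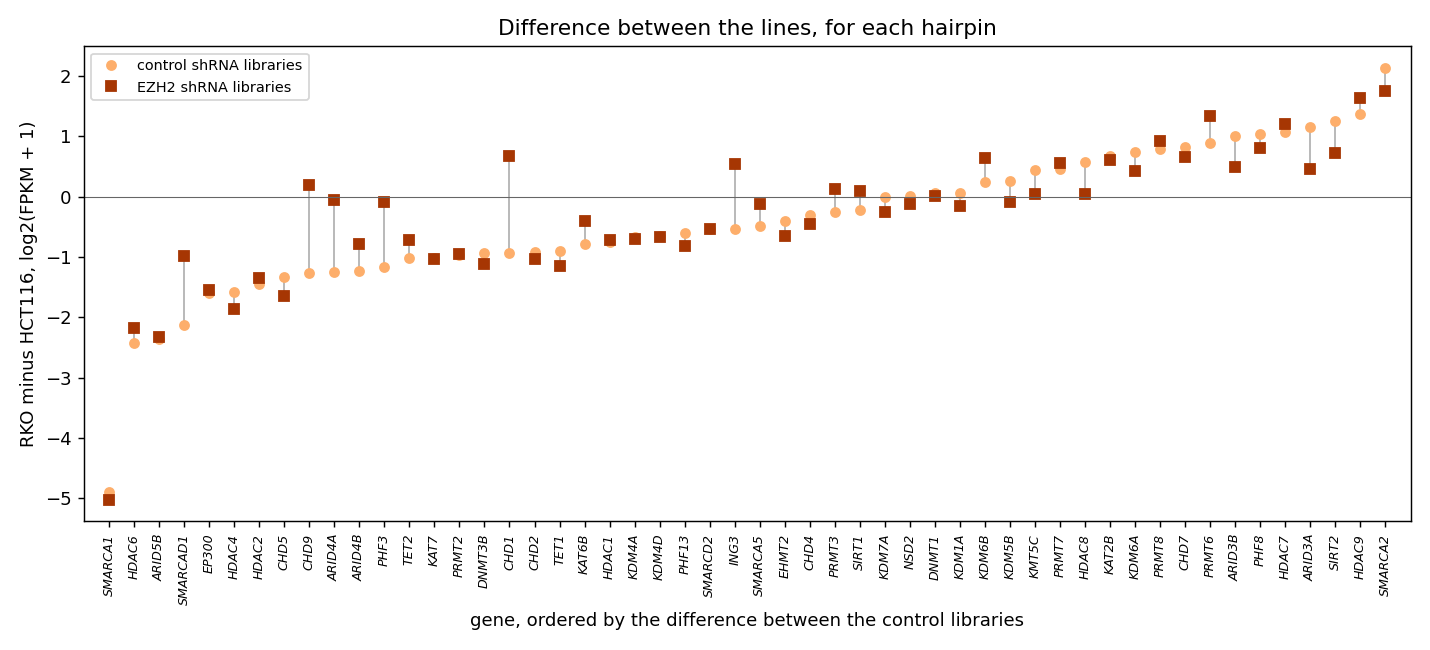
Difference of log2(FPKM + 1), RKO minus HCT116, for each chromatin regulator (KDM5D is not drawn), in the control shRNA pair (circles) and the EZH2 shRNA pair (squares). The pairs give similar values for SMARCA1, HDAC6, ARID5B and SMARCA2, and differ most for CHD1, CHD9, ARID4A, SMARCAD1, PHF3 and ING3.

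Of the genes below 1 FPKM on average, 3 also separated the lines. CHD5, a neural NuRD remodeler, was at 1.58, 2.16, 0.02 and 0.01 FPKM, with 621 counts in HCT116 and 4 in RKO (ratio 172, counting interval 66.7 to 632). TET1 was at 0.99, 1.38, 0.07 and 0.07 FPKM, with 584 and 35 counts. Both were thus close to silent in RKO. PRMT8, an arginine methyltransferase known mainly from brain, was at 0 in both HCT116 libraries and at 0.72 and 0.89 FPKM in RKO. The 62 counts in RKO against 0 give 18.7-fold at a floor of 3 counts over the group, and the counting interval starts at 14.8.

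The other subunits of the same complexes were described from a list of 88 genes, of which 31 were in the table and 29 measured. HCT116 had 2 of them higher and 2 lower, and RKO had 8 higher and 4 lower, against 12.7%, 9.66%, 22.7% and 10.9% of all measured genes. The medians were 0.04 and -0.06. Of the 5 measured partners of ISWI ATPases 3 were higher in RKO, as were 3 of the 7 heterochromatin and methyl-DNA proteins. Among these, RSF1, ATRX and CBX3 had under 40% GC, a class of which 66.5% was higher in RKO. RSF1, which pairs with SMARCA5, was at 10.97, 12.22, 3.59 and 10.19 FPKM, and BPTF, the reader subunit of the NURF complex of SMARCA1, at 20.40, 21.73, 5.31 and 9.96 FPKM. BAZ2B was at 3.56, 4.95, 0.82 and 2.75 FPKM, and was the only gene of the list higher in both lines. In RKO all 3 had their control library lowest. The chromatin remodeler ATRX, which deposits histone H3.3 with DAXX at heterochromatin, was at 13.08, 15.15, 0.64 and 6.10 FPKM, a log2 difference of 2.11 in RKO and 1.48 with the GC trend subtracted. RCOR2, a CoREST scaffold, was at 8.78, 6.73, 5.64 and 3.80 FPKM and ACTR5 of INO80 at 13.16, 10.67, 7.64 and 6.01 FPKM. These 2 were the genes of the list lower in both lines.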

How the data were processed

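Per the labels, Trizol was used to harvest the RNA, a TruSeq kit to build the libraries and an MGISEQ-2000 to sequence them. The authors aligned the reads by Bowtie and quantified genes by RSEM. The submitters' processing notes name Bowtie2, BWA, hg19 and GRCh37, while the methods name a mouse build, so the build used was not settled. Versions and strand use are not given in the sources used here. The deposited table held an FPKM value per gene and library, rounded to 2 decimals, and an expected count, the fragments that RSEM assigned and shared between isoforms and near-identical genes. A further 2 deposited columns hold log2 ratios of FPKM for each line and were not used. The table is a partial gene list whose selection rule is not given in the sources used here.

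Changes were differences of log2(FPKM + 1). Expected counts were rounded and tested with edgeR 4.0.16 in R 4.3.3 with TMM scaling. DESeq2 1.42.0, limma 3.58.1, other scalings, filters, thresholds and pseudocounts, and subtraction of a lowess GC trend with a span of 0.3 were alternatives. GC came from the longest GENCODE 29 transcript of each gene, for 99.1% of measured genes. The tests were also run on simulated counts with the same fold change in both lines and no GC difference. These data differ from that setting, so no conclusion about the tests here is drawn from it. The depth of a library was computed by comparing counts with FPKM values over 80 genes. Nothing in the labels describes separate cultures, and no group has a replicate library. The p-values therefore rest on how far the hairpin difference varied between the lines, which may be technical. Intervals cover counting error only. Named genes were the largest differences in each line, those called in both lines, the H3K27 demethylases, the largest line differences and the highest and lowest levels. CHD5, TET1, NSD2, KMT5C, CHD2, KAT7 and other members outside that rule were added after their values were seen to complete each family. The members and gene lists were chosen with earlier results of these data known. A spreadsheet had turned 13 symbols into dates, restored through gene IDs. The level of KDM5D is not reported here.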

Additional observations from a re-analysis of the deposited data

How the results depend on the processing

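With a minimum mean of 5 FPKM, 3 members were over 1.2-fold higher in HCT116, 9 were higher in RKO and 0 in both lines. A threshold of 1.5-fold left HCT116 with 0 members higher and 0 lower, and RKO with 8 higher and 0 lower. The lines together then had 0 shared in either direction. The shares of all measured genes under this filter and this threshold are not given here. These counts are therefore not read as a result about the members. Median-of-ratios scaling made 11 members lower in RKO. The count of members passing 1.2-fold in opposite directions, 0 in the report, was 1 with a pseudocount of 0.1 and 1 with the GC trend subtracted (KDM7A). It was 2 with expected counts over depth (ARID3B and SIRT2), an alternative chosen after seeing the data. By construction the stricter threshold and filter count fewer genes, and the cause of the other shifts was not tested. The median change of the members in RKO ran from 0.01 to 0.12 over the settings. The member counts called between the lines stayed within 1.5 times under DESeq2, limma, no filter and library sizes taken as estimated depth, and 0 members were called for the common change under each of these and without the line block. For changes of single named genes, 11 of 84 moved by more than the tolerance with the GC trend subtracted, 10 with median-of-ratios scaling, 6 with expected counts over depth and 4 with a pseudocount of 0.1. The line block in the test of the common change pairs the libraries of each line. The libraries carry no replicate numbers that could pair them further, and with 1 library per group none could be left out within a line. Depth limits the values near 0, such as SMARCA1 in RKO with 1 count.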
